A study of Homo sapiens with 4 samples.

Results

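The interleukin-6 (IL-6) family genes described here are 4 secreted ligands or ligand subunits (IL6, IL11, LIF and CLCF1), 5 receptor chains (IL6ST, IL6R, IL11RA, LIFR and OSMR) and SOCS3, an inhibitor that the pathway induces. Members were taken by name: every probe set whose only gene symbol in the platform annotation was a listed gene entered the comparison. Of the 10 listed genes, 9 had such a probe set, and together they held 28 of the 54613 probe sets in the table. No probe set carried CLCF1 as its single symbol, so CLCF1 was not analysed here. Among several probe sets of a gene, the one with the highest average of the 4 arrays stood for it, and this gave 19775 genes in the whole table.

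Cytokines of this family share the signalling chain gp130, the product of IL6ST. IL-6 and IL-11 first bind a receptor of their own (IL6R or IL11RA) and then recruit pairs of gp130, whereas LIF joins gp130 to the LIF receptor and oncostatin M joins it to either LIFR or OSMR. Receptor pairing activates JAK kinases, which phosphorylate the transcription factor STAT3. STAT3 induces SOCS3, which binds gp130 and JAK and damps the signal. In bile duct epithelium IL-6 is an inflammatory growth and survival factor, and many bile duct cancer cells secrete it themselves.

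The series compared 2 arrays of HuCCT1, an established human cholangiocarcinoma line labelled ARID1A wild type, with 2 arrays labelled ARID1A knockout. ARID1A encodes a DNA-binding subunit of the SWI/SNF chromatin remodelling complex. Per the labels' protocols, knockout cells were infected with a lentivirus for Cas9 and a single guide RNA, kept under puromycin, and clones were then raised by limiting dilution. The protocols name no cytokine treatment. The guide, shown because it defines the knockout label, was 5′ to 3′ tgagcgagactgagcaacac. How many clones the knockout arrays represent, whether the arrays in each group stem from separate cultures, and what vector or selection the wild-type cells received are not given in the sources used here. The p-values therefore reflect only how these arrays scatter, and that scatter may be technical.

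ARID1A read 8.55 and 8.61 in the wild-type arrays and 6.15 and 5.95 in the knockout-labelled arrays, that is lower by −2.53 ± 0.11 on the log2 scale (SE; limma adjusted p = 0.00014). A check for swapped samples split the arrays into 2 that matched each other and 2 that did not match these, and leaving either pair out leaves no comparison. The 2 labelled groups may therefore be cells of different origin. Loss of ARID1A and such a difference of origin cannot be told apart, and every difference below is one between labelled groups. Arrays within a group correlated at 0.997 and 0.995 across genes and arrays of different groups at 0.920 to 0.921. Of all genes, 38.7% passed the test (limma, Benjamini-Hochberg adjusted p under 0.05), with 21.5% of genes higher in the knockout-labelled arrays and 17.2% of genes lower there.

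Against that background, 8 of the 9 measured members passed, 7 of them lower and 1 higher in the knockout-labelled arrays. IL6 and IL11 were lower by more than 7 log2 units, LIFR and OSMR by 2.38 and 1.69, SOCS3 by 1.03, LIF by 0.81 and IL6ST by 0.43, while IL6R was higher by 1.91. IL11RA did not pass. The median log2 difference of the 9 members was −1.03, beside 0.06 over all genes. In the same 8 genes the groups did not overlap, a state found in 66.4% of all genes. Values are the deposited log2 values. Because probe sets bind with different strength, each difference is taken within the same probe set. Percentiles, the array median and list means set different probe sets side by side, so they describe brightness and not RNA amount. In lysates of whole cultures, fewer cells expressing a gene and less RNA per cell cannot be told apart.

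**Figure D1:**
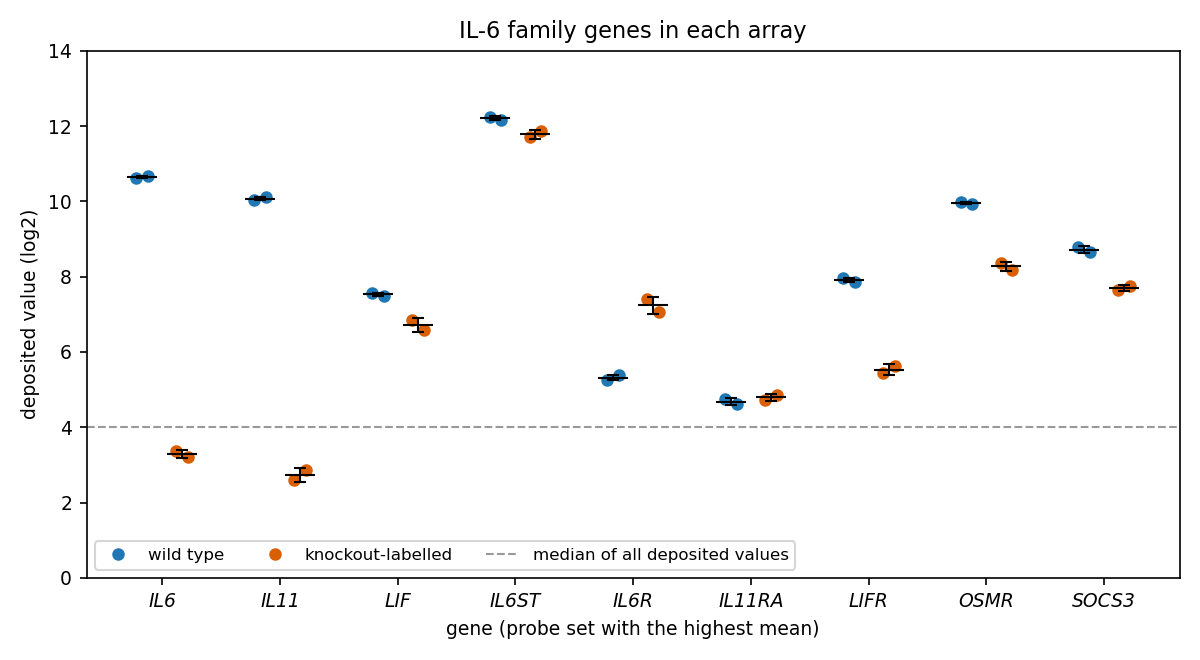
Deposited log2 values of the 9 measured IL-6 family genes, each by its brightest probe set, in the 2 wild-type arrays (blue) and the 2 knockout-labelled arrays (orange); black bars are the mean ± SD and the dashed line is the median of all deposited values, 4.01. IL6 and IL11 lie near 10 in the wild type and below the dashed line in the knockout-labelled arrays, IL6R is the gene that is higher there, and IL11RA overlaps.

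Among the ligands, IL6 was bright in the wild-type arrays and under the array median in the knockout-labelled ones. Its single probe set (205207_at) read 10.63 and 10.67 in the wild type and 3.36 and 3.21 in the knockout-labelled arrays. Both wild-type arrays were high, both knockout-labelled arrays lay under the median of all probe sets, and the groups were far apart. IL6 thus differed by −7.36 ± 0.10 (SE; limma adjusted p = 1.35e-05), on the deposited scale a 165-fold lower value. Ranked among all probe sets of its arrays, the wild-type mean was at percentile 98.1 and the knockout-labelled mean at percentile 38.1. Since the method gives no detection call, a value in that range is not a measured amount, and with values under the overall median set to that median the difference was −6.64.

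IL11, the ligand that drives gp130 through IL11RA and is known for stromal and epithelial injury responses, showed the same contrast. Probe set 206924_at read 10.04 and 10.10 in the wild type and 2.61 and 2.86 in the knockout-labelled arrays, a difference of −7.34 ± 0.12 (SE; limma adjusted p = 1.59e-05). With values under the overall median set to it, that difference was −6.06. A dimmer probe set of the gene, 206926_s_at, read 6.96 in both wild-type arrays and 3.68 and 3.97 in the others, lower by 3.14 ± 0.14 (−3.14; adjusted p = 0.00031 over all probe sets). Both probe sets of IL11 were therefore lower with no overlap, but by sizes that differed by more than 4 log2 units. Averaging them gave −5.24.

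LIF, leukaemia inhibitory factor, signals through LIFR and gp130 and was far less altered than IL6 and IL11. Its single probe set (205266_at) read 7.56 and 7.50 in the wild type and 6.85 and 6.59 in the knockout-labelled arrays. The groups did not overlap and LIF stayed well above the array median in all 4 arrays. Its difference was −0.81 ± 0.13 (SE; limma adjusted p = 0.00631), a 1.75-fold lower value. The call was lost without wild-type replicate 1 (−0.78, adjusted p = 0.0783) or wild-type replicate 2 (−0.84, adjusted p = 0.0666).

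Chosen among the members were the ligand genes with the largest falls, the receptor gene with the largest fall and the receptor gene that rose. The 250 bases before their RefSeq start sites are shown so that the regulatory letters can be set beside the values. They lie on GRCh38.p14 at chr7:22726950-22727199 (plus strand) for IL6, chr19:55370464-55370713 (minus) for IL11, chr5:38595406-38595655 (minus) for LIFR and chr1:154405093-154405342 (plus) for IL6R. Each is written 5′ to 3′ along its gene, with capitals marking a match to any of 5 motifs searched on both strands: the STAT palindrome TTCNNNGAA, the AP-1 site TGANTCA, the C/EBP site TTGCNNAA, the TATA element TATAAA and the kappa B consensus bound by NF-kB.
IL6: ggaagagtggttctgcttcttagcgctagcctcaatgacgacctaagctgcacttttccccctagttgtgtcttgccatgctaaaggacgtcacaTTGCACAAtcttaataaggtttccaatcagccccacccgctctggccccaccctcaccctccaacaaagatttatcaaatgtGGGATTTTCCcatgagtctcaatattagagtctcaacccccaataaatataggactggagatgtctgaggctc
IL11: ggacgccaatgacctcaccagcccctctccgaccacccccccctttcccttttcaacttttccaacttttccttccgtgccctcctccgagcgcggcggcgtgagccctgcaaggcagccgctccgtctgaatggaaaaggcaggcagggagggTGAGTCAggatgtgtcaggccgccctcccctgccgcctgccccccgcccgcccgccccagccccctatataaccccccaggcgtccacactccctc
LIFR: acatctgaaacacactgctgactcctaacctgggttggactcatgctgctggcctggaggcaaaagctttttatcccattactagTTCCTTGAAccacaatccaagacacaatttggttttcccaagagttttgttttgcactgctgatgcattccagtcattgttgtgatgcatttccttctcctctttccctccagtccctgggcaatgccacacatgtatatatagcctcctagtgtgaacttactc
IL6R: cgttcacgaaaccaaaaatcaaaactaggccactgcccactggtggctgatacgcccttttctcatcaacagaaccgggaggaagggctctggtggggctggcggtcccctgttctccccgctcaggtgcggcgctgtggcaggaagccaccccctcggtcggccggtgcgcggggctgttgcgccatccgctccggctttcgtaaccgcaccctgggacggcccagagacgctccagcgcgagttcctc
In IL6 the capitals are a C/EBP match starting 155 bases and a kappa B match starting 73 bases before the start site, and they do not overlap. In IL11 the capitals are an AP-1 match starting 96 bases before it, and in LIFR a STAT match starting 165 bases before it. IL6R held no match to the 5 motifs in this window. Promoters of 8 of the 10 listed genes were in the RefSeq table. Of these 8, the kappa B match was also found in IL6ST and the C/EBP match in OSMR, while SOCS3 and IL11RA held none. Among 35116 promoter windows of the same length, 6.57% held the STAT, 6.57% the AP-1, 9.05% the C/EBP, 10.7% the TATA and 9.96% the kappa B match. A match is a string of letters, and binding was not measured in this series.

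IL6ST, the shared gp130 chain, was lower by an amount that depended on the probe set. The brightest of its 7 probe sets, 212195_at, read 12.25 and 12.17 in the wild type and 11.70 and 11.86 in the knockout-labelled arrays. At percentile 99.5 and 99.3 of the arrays, it was bright in every array, and the groups did not overlap. It differed by −0.43 ± 0.11 (SE), with limma adjusted p = 0.0299 over genes and 0.0557 when all probe sets were tested. The gene's call was lost without wild-type replicate 1 (adjusted p = 0.178), wild-type replicate 2 (0.13) or knockout replicate 1 (0.0896).

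Other probe sets of IL6ST differed by more. Probe set 212196_at fell from 9.22 and 9.17 to 8.07 and 8.05 (−1.14 ± 0.11, limma adjusted p = 0.00221 over all probe sets). Probe sets 211000_s_at and 204863_s_at had nearly the same profile as each other, at 7.12 and 7.10 in knockout replicate 1 but only 6.22 and 6.18 in knockout replicate 2. They differed by −1.62 ± 0.32 and −1.66 ± 0.33. Dimmer 204864_s_at differed by −0.80 ± 0.16, and the probe sets 234967_at and 234474_x_at, under the array median in all arrays, overlapped between groups. Of the 7 probe sets 4 passed, all lower, and the mean of the 7 differed by −0.82 (adjusted p = 0.00616 over genes). These data do not show which probe set follows the transcripts that encode gp130.

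IL6R, the IL-6 binding chain that restricts the classical response to the cells that carry it, was the single member that rose. Probe set 226333_at read 5.27 and 5.37 in the wild type and 7.40 and 7.07 in the knockout-labelled arrays. A further probe set, 205945_at, read 4.61 and 4.33 in the wild type against 6.97 and 6.64. In both, each knockout-labelled array lay above each wild-type array. The differences were 1.91 ± 0.14 (SE; limma adjusted p = 0.000601 over genes) and 2.34 ± 0.17 (adjusted p = 0.00115 over all probe sets), or 3.77-fold and 5.05-fold. The remaining probe set, 217489_s_at, was dim in all arrays, between 1.90 and 2.34, and missed the threshold at 0.40 ± 0.11 (adjusted p = 0.0511).

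IL11RA, the chain that binds IL-11, did not differ detectably although its ligand did. Probe set 204773_at read 4.74 and 4.61 in the wild type and 4.73 and 4.87 in the knockout-labelled arrays, and the groups overlapped. Its difference was 0.12 ± 0.11 (SE; limma adjusted p = 0.456), with a 95% interval from −0.16 to 0.41. On the deposited scale, that interval leaves out a 2-fold difference in either direction but not a small one. The group means lay only at percentiles 59.4 and 61.6 of the arrays, and no detection call is given. The interval therefore does not bound a difference in RNA amount. The other probe set, 1552646_at, read 3.73 and 3.59 in the wild type and 3.75 and 3.93 in the knockout-labelled arrays, without overlap. It differed by 0.18 ± 0.13 and did not pass (limma adjusted p = 0.405 over all probe sets).

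LIFR and OSMR, the chains that join gp130 for LIF and oncostatin M, were both lower. LIFR (225575_at) read 7.95 and 7.87 in the wild type and 5.43 and 5.64 in the knockout-labelled arrays, a fall of 5.20-fold (−2.38 ± 0.12, SE; limma adjusted p = 0.000173). The gene has 5 probe sets, and 4 passed and were lower, from −1.09 ± 0.16 (205876_at) to −3.19 ± 0.19 (225571_at). The fifth, 229185_at, was dim in every array, from 2.23 to 2.78, and lay higher in the knockout-labelled arrays without passing (0.39 ± 0.13, adjusted p = 0.0925 over all probe sets).

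OSMR (226621_at) read 9.98 and 9.93 in the wild type and 8.36 and 8.18 in the knockout-labelled arrays, a fall of 3.22-fold (−1.69 ± 0.11, SE; limma adjusted p = 0.000384). It stayed well above the array median in all arrays, with its knockout-labelled mean at percentile 90.1. All 3 of its probe sets passed, at −1.69, −1.001 (1554008_at) and −2.29 (205729_at). OSMR was the member with several probe sets, besides IL11, in which every probe set passed.

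SOCS3, the feedback inhibitor, was lower in its brighter probe sets. Probe set 227697_at read 8.78 and 8.66 in the wild type and 7.63 and 7.75 in the knockout-labelled arrays, and the groups did not overlap. The difference was −1.03 ± 0.11 (SE; limma adjusted p = 0.00164), a 2.04-fold lower value. Probe set 206359_at fell from 6.48 and 6.56 to 5.94 and 5.58 (−0.77 ± 0.16, adjusted p = 0.0232 over all probe sets). The others, 206360_s_at and 214105_at, differed by −0.06 ± 0.18 and −0.08 ± 0.11 and did not pass. Averaging the 4 probe sets gave −0.48 (adjusted p = 0.00983 over genes).

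Over the 28 probe sets, 17 were lower, 2 higher and 9 did not pass (limma, adjusted over all probe sets). Of all 54613 probe sets 26.9% passed, 13.9% higher and 13.0% lower. The 19 that passed all had at least 1 group mean over the array median, and none of the 6 probe sets with both means under it passed. Not overlapping between groups were 24 of the 28, a state found in 60.3% of all probe sets. No member had probe sets that passed in opposite directions. The count of 19 was 8 without wild-type replicate 1, and also 8 without wild-type replicate 2.

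**Figure D2:**
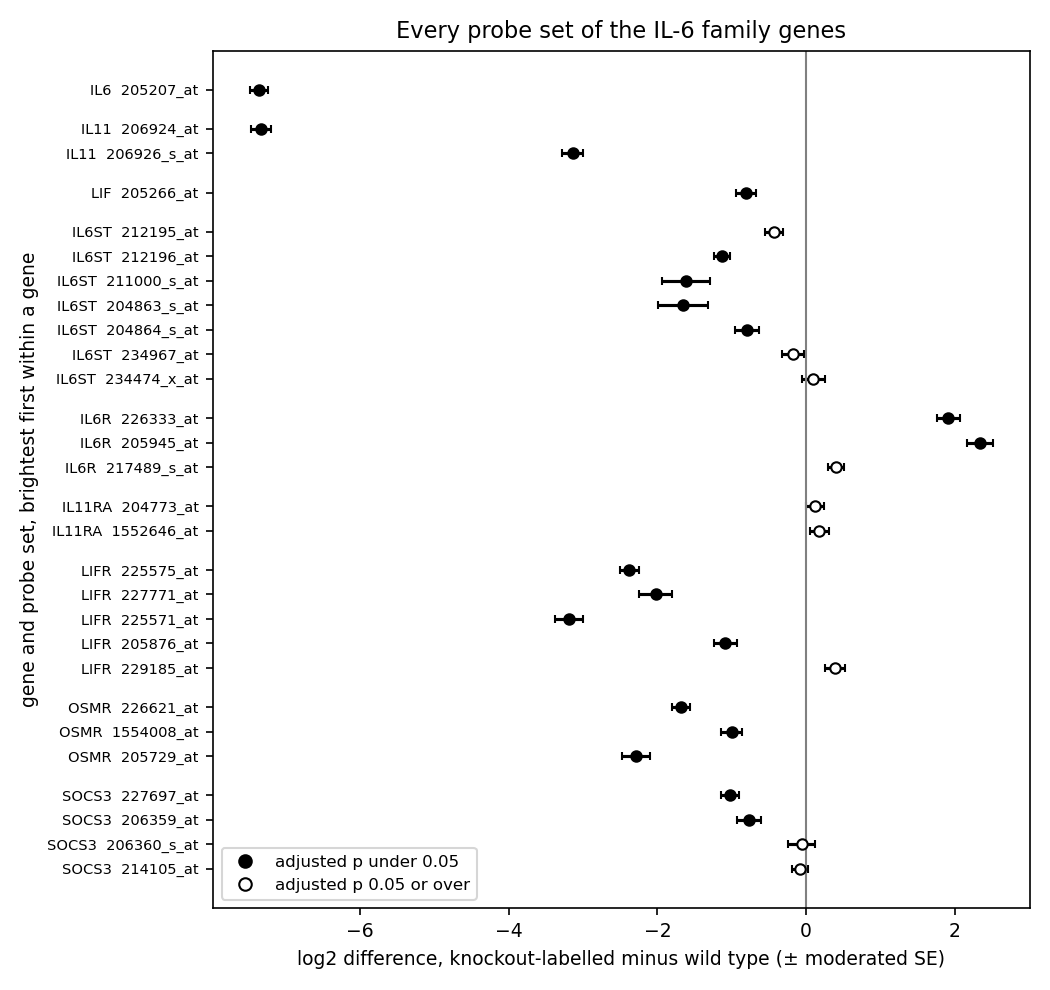
Log2 difference, knockout-labelled minus wild type, of the 28 probe sets of the 9 members, with the moderated SE; filled points passed at an adjusted p under 0.05 over all probe sets and genes are ordered by role, brightest probe set first. All filled points of a gene lie on the same side of 0, and IL6ST runs from −1.66 to 0.10 depending on the probe set.

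Most other ligands and receptor chains of the family did not pass (38.7% of all genes passed). Of 5 measured ligands or ligand partners, 1 rose and 0 fell: EBI3, a subunit shared by IL-27 and IL-35, read 3.45 and 3.73 in the wild type and 4.35 and 4.499 in the knockout-labelled ones (0.84 ± 0.14, limma adjusted p = 0.00731). That call was lost without wild-type replicate 1 (adjusted p = 0.0644) or knockout replicate 2 (0.0621). The wild-type mean of EBI3 lay under the array median, at percentile 43.2, so its size holds for the deposited scale only. OSM, the oncostatin M gene, read 4.71 and 4.78 against 4.84 and 4.75. Of 3 further receptor chains, IL31RA, which pairs with OSMR to bind IL-31, fell from 8.19 and 8.30 to 3.94 and 4.76 (−3.90 ± 0.28, adjusted p = 0.000531), in all 3 of its probe sets. CNTFR and IL27RA did not pass.

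Of the 4 genes of receptor shedding, by which membrane proteases release soluble IL-6 receptor, 3 rose and 0 fell. Of all genes, 21.5% were higher and 17.2% lower. ADAM10, a sheddase, differed by 0.74 ± 0.10 (limma adjusted p = 0.00436), ADAM17 by 0.38 ± 0.10 (0.039) and RHBDF1, which helps ADAM17 mature, by 0.51 ± 0.14 (0.0404). ADAM17 passed in 0 of the 4 fits that left out an array, RHBDF1 in 1 (without knockout replicate 2) and ADAM10 in 3 (lost without wild-type replicate 2, adjusted p = 0.0538). Neither ADAM17, with 3 probe sets, nor RHBDF1, with 2, had a probe set that passed when all probe sets were tested. RHBDF2, the remaining gene of this list, lay lower without passing (−0.44 ± 0.17, limma adjusted p = 0.103). The median of the 4 genes was 0.44.

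Of 10 measured JAK, STAT and adaptor genes, 2 rose and 3 fell (beside 21.5% and 17.2% of all genes). Their median was −0.14. SHC1, an adaptor that carries receptor signals to RAS, rose from 9.63 and 9.79 to 12.18 and 12.19 (2.48 ± 0.11, limma adjusted p = 0.000119), in both of its probe sets. STAT5A fell by 1.18 ± 0.22 (−1.18, adjusted p = 0.0121), JAK2 by 0.66 ± 0.09 (−0.66, adjusted p = 0.00451), and GAB1, a docking protein, rose by 0.69 ± 0.16 (adjusted p = 0.0212). The wild-type mean of GAB1 lay under the array median, at percentile 47.7. STAT3 itself, named here after its values were seen, read 9.31 and 9.34 against 9.03 and 8.90, a difference of −0.36 ± 0.10 (adjusted p = 0.0433). JAK1, the main kinase of gp130, also named afterwards, differed by −0.05 ± 0.10 (adjusted p = 0.78; 95% interval −0.31 to 0.21). That interval is for its brightest probe set. When all probe sets were tested, 1 of the 5 of JAK1 and 2 of the 4 of STAT3 were lower and 0 higher. SHC1 passed in all 4 fits that left out an array. STAT3 passed in 0 of them (adjusted p from 0.0559 to 0.198), JAK2 was lost without either wild-type array (0.0521 and 0.0573), STAT5A passed only without knockout replicate 2 (0.0354) and GAB1 only without wild-type replicate 2 (0.0422).

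Of 8 other inhibitors of the pathway, 4 rose and 2 fell (beside 21.5% and 17.2% of all genes). Their median was 0.44. PIAS3, which blocks DNA binding by STAT3, rose from 7.22 and 7.23 to 9.14 and 8.88 (1.79 ± 0.12, limma adjusted p = 0.00047). SOCS2, a relative of SOCS3 known for damping growth hormone signals, rose by 0.93 ± 0.09 (adjusted p = 0.00151) and PIAS1 by 0.89 ± 0.12 (0.00434). PTPN2, a phosphatase that acts on JAK and STAT proteins, fell from 8.46 and 8.47 to 7.15 and 7.19 (−1.29 ± 0.09, adjusted p = 0.000546), with 2 of its 7 probe sets lower and 1 higher. SOCS1 did not pass. PIAS1 lost its call without wild-type replicate 2 (adjusted p = 0.056), and PIAS3, SOCS2 and PTPN2 passed in all 4 such fits. Over the 30 measured genes of these 5 lists together, 10 rose and 6 fell (53.3% called beside 38.7% of all genes), with a median of 0.02. With genes under the 40th percentile of mean left out, 64% of the 25 remaining passed, beside 63% of all genes. The count of 16 was 7 without wild-type replicate 1 and also 7 without wild-type replicate 2, and it was 9 of 23 with _x_at and _s_at probe sets left out (39.1%, beside 34.4% of all genes in that fit).

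**Figure D3:**
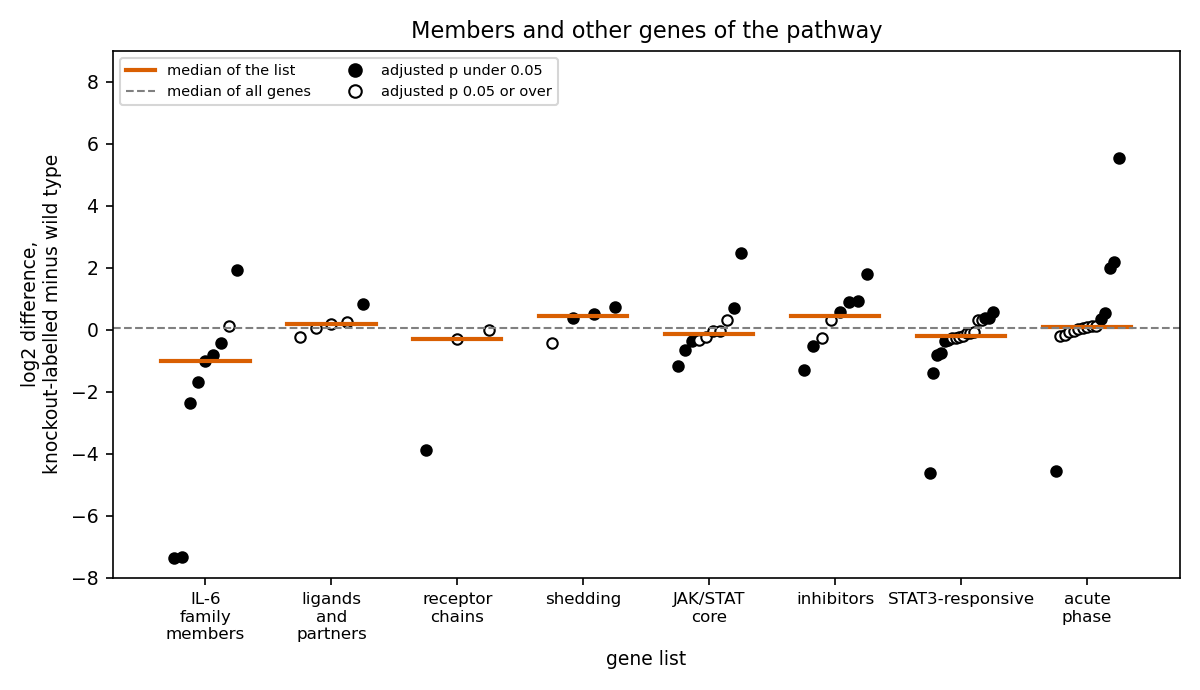
Log2 differences, knockout-labelled minus wild type, of the 9 members and of the other measured genes of the pathway by list; each point is a gene, filled where adjusted p was under 0.05, orange bars are list medians and the dashed line is the median of all genes (0.06). The member list has a median of −1.03, while the medians of the other lists lie between −0.30 and 0.44.

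Downstream, genes that STAT3 is known to induce changed in both directions. Of 18 measured STAT3-responsive genes, 6 fell and 3 rose (beside 17.2% and 21.5% of all genes). Their median was −0.22. ICAM1, a leukocyte adhesion molecule that NF-kB also induces, fell from 8.73 and 8.72 to 4.21 and 4.003 (−4.62 ± 0.11, limma adjusted p = 3.04e-05), in all 3 of its probe sets. CEBPB, a transcription factor of the acute-phase response, fell by 1.40 ± 0.11 (−1.40, adjusted p = 0.00066), TIMP1, a metalloproteinase inhibitor, by 0.80 ± 0.14 (−0.80, 0.00808) and MUC1, a membrane mucin, by 0.77 ± 0.12 (−0.77, 0.0063). The called rises in this list were small, at most 0.56. TIMP1 lost its call without wild-type replicate 1 (adjusted p = 0.08) or wild-type replicate 2 (0.0892), and MUC1 without wild-type replicate 2 (0.0667).

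IL-6 induces genes of acute-phase proteins in hepatocytes. Here 7 of the 15 measured acute-phase genes had both group means under the array median. In this list 5 genes rose and 1 fell (beside 21.5% and 17.2% of all genes), with a median of 0.09. AGT, angiotensinogen, rose from 3.31 and 2.74 to 8.89 and 8.23 (5.54 ± 0.29, limma adjusted p = 0.000213), and the fibrinogen chains FGB and FGG rose by 2.20 ± 0.15 (0.000471) and 2.00 ± 0.30 (0.00549). The wild-type means of AGT, FGB and FGG lay under the array median, at percentiles 33.8, 31.4 and 27.7, so the sizes of these rises hold for the deposited scale only. SERPINA1, alpha-1-antitrypsin, fell from 10.78 and 10.66 to 6.62 and 5.69 (−4.57 ± 0.31, adjusted p = 0.000454). When all probe sets were tested, 3 of the 4 of SERPINA1 were lower and 1 of the 2 of FGB was higher. FGG lost its call without wild-type replicate 1 (adjusted p = 0.0815) or wild-type replicate 2 (0.0665). Over both downstream lists 8 of 33 genes rose and 7 fell (45.5% called beside 38.7% of all genes), so the share was near the background. With genes under the 40th percentile of mean left out, 66.7% of the 21 remaining passed, beside 63% of all genes. The count of 15 was 6 without wild-type replicate 1, 5 without wild-type replicate 2, 9 without knockout replicate 1, and 8 of 26 with _x_at and _s_at probe sets left out (30.8%, beside 34.4% of all genes in that fit).

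By position, 3 of the members lie on chromosome 5, all receptor chains and all lower. LIFR and OSMR are neighbours in RefSeq order among the measured genes, and the next gene beyond OSMR is RICTOR, a subunit of the mTOR complex, which was also lower (−0.91 ± 0.11, limma adjusted p = 0.00244). IL6ST neighbours IL31RA. Of 889 measured genes of chromosome 5, 26.1% were lower and 15.1% higher, beside 17.2% and 21.5% of all genes; the share of lower genes ran from 4.24% to 32.6% over 23 chromosomes. DNA copy number was not measured, and the part that position plays in the falls of LIFR, OSMR and IL6ST was not tested.

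Over all 9 members, 16 of the nearest measured genes are not members themselves. Of these, 4 were lower (IL6-AS1, IL31RA, GALT and RICTOR), 1 was higher (LIF-AS2) and 11 did not pass; the share called was 31.2%, near the 38.7% of all genes. IL6-AS1, an antisense RNA beside IL6, differed by −0.79 ± 0.11 from a wild-type level already under the array median, and HYCC1 on the other side by −0.31 ± 0.15 without passing. Neither neighbour of IL11 (GARIN5B and TMEM190) or of IL6R (IL6R-AS1 and SHE) passed. LIF-AS2 differed by 0.72 ± 0.20 with all 4 arrays (limma adjusted p = 0.0385), and its wild-type mean also lay under the array median. Among the fits that left out an array, IL6-AS1 lost its call without wild-type replicate 2. LIF-AS2 kept its call only without knockout replicate 1.

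**Figure D4:**
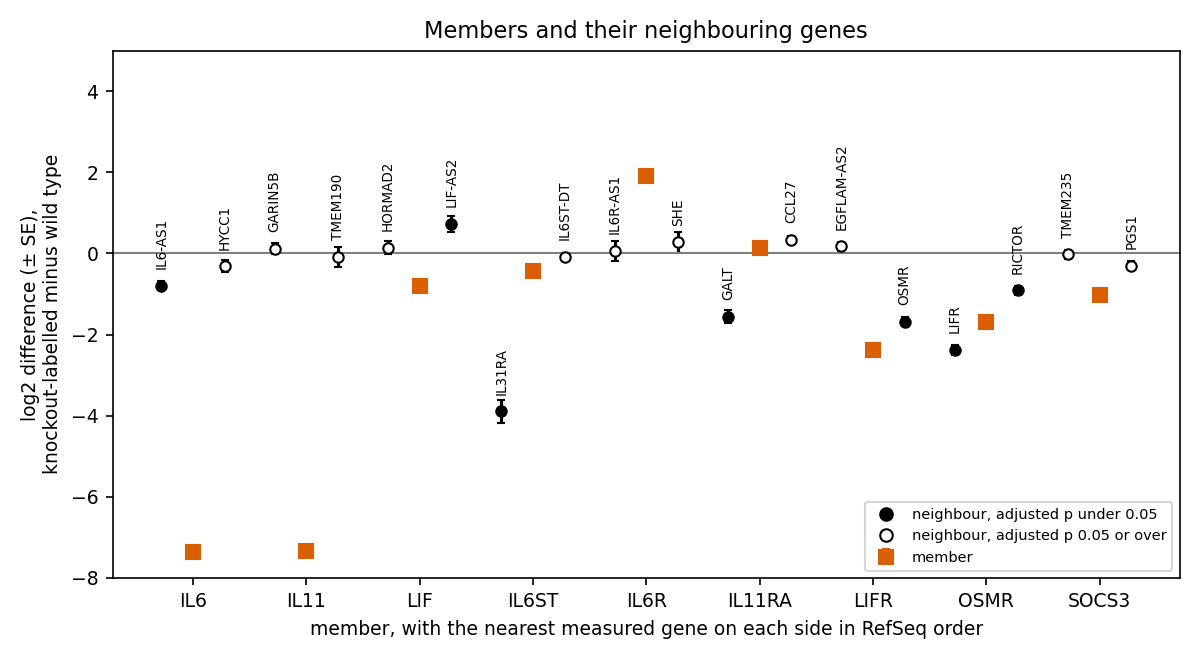
Log2 difference with SE of each member (orange squares) and of the nearest measured gene on its lower-coordinate and higher-coordinate side in RefSeq order (circles, filled where adjusted p was under 0.05). LIFR, OSMR and RICTOR are lower together at −2.38, −1.69 and −0.91, whereas IL11 at −7.34 stands between genes at 0.12 and −0.09.

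The keratins of bile duct epithelium were bright in both groups, although KRT7 and KRT19 were lower under the knockout label. EPCAM and CFTR, also markers of the labelled cell type, were much lower there. Of 7 measured bile duct epithelial markers, 4 fell and 1 rose (beside 17.2% and 21.5% of all genes). KRT8 was the gene that rose (0.82 ± 0.13, limma adjusted p = 0.00582). KRT18 and SOX9 lay higher by 0.24 ± 0.10 and 0.22 ± 0.11 without passing. KRT7 read 12.42 and 12.48 against 10.13 and 10.14, and KRT19 read 11.34 and 11.55 against 10.52 and 10.51, all in the upper 3% of the arrays. EPCAM fell from 12.19 and 12.04 to 7.42 and 7.34, and the chloride channel gene CFTR from 7.96 and 7.77 to 3.52 and 3.40, under the array median. When all probe sets were tested, 1 of the 4 of KRT7, 1 of the 2 of KRT19 and 3 of the 6 of CFTR were lower and 0 higher. EPCAM has a single probe set. The mean over the 7 markers was 10.62 to 10.68 in the wild-type and 9.03 to 9.10 in the knockout-labelled arrays.

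Markers of other cell types that respond to or secrete IL-6 gave the following counts, to be read beside the 38.7% of all genes that passed. Of 5 leukocyte markers 1 fell (CD14) and 0 rose, with a list mean of 3.40 to 3.41 in the wild type and 3.17 to 3.19 in the knockout-labelled arrays; PTPRC, the defining leukocyte gene, was at most 2.15 in any array. Of 7 fibroblast markers 2 fell (LUM and COL1A1) and 1 rose (ACTA2), with a list mean of 4.88 to 4.91 against 3.91 to 4.01. Of 5 endothelial markers 1 rose (TEK, a call lost without any 1 of the 4 arrays, adjusted p from 0.0559 to 0.202) and 0 fell, at 3.17 to 3.18 against 3.25 to 3.49. Of 6 hepatocyte markers 3 rose (CPS1, ALB and TTR) and 0 fell, at 3.94 to 3.98 against 4.63 to 4.96; the calls of ALB and TTR were lost without wild-type replicate 1 (0.149 and 0.163) or wild-type replicate 2 (0.142 and 0.187), and that of TTR also without knockout replicate 1 (0.0869). When all probe sets were tested, ACTA2 rose in 1 of 3, ALB in 1 of 4 and CPS1 in 2 of 2. COL1A1 fell in 3 of 5 and LUM in 1 of 2. The part of these markers in the differences of IL6, IL11 and the receptor genes was not tested.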

How the data were processed

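Total RNA of 4 samples labelled HuCCT1 was measured on Affymetrix 3′ expression arrays, 2 per group. The authors deposited 1 column of log2 values per array, between 0.87 and 13.9 with array medians of 3.99 to 4.03; RMA and the affy package made them, per the submitters' processing notes, with no version stated. RMA equalises overall brightness and gives no detection call. Depth does not apply to arrays; their number limits the precision. The platform annotation (2016) gave 41091 probe sets 1 symbol, 1801 several and 11721 none. RefSeq (GRCh38.p14) gave gene order and promoter sequences; the build of the probe design was not used.

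The labelled groups were compared by limma 3.58.1 under R 4.3.3 (lmFit, eBayes, no covariate, no filter) over 19775 genes and, separately, over all 54613 probe sets, with Benjamini-Hochberg adjustment over each whole table at 0.05. Members, lists and tests were chosen with earlier results of these data known. Named genes were ARID1A, the members, their nearest measured neighbours, and up to 4 called genes per list by size. Of 103 list genes 93 were measured. Intervals are 95% limma intervals. Alternatives were another variance model, other choices of probe set, a filter at the 40th percentile, quantile normalizing or centring again, the replicate block, a floor on dim values and leaving out each array.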

Additional observations from a re-analysis of the deposited data

How the results depend on the processing

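Of the 9 member differences, none changed sign under the 11 alternatives tested with limma or with dim values raised to the overall median. IL6, IL11, IL6R, LIFR, OSMR and SOCS3 passed in all 11, LIF in 9, IL6ST in 7 and IL11RA in 0. The count of 8 called members lay between 6 and 8. With 1 array left out, the count of called member probe sets ran from 8 to 17 (19 with all arrays), that of the other pathway genes from 7 to 12 (16), that of the STAT3-responsive and acute-phase genes from 5 to 10 (15) and that of all genes from 3939 to 6220 (7657). An arm of 1 array is assumed to vary like the other. With _x_at and _s_at probe sets left out, the other pathway genes gave 9 calls among 23 genes (39.1%) and the downstream genes 8 among 26 (30.8%), beside 34.4% of all genes then tested. The replicate numbers are shared by the groups but nothing ties same-numbered arrays together; their deviations from the group means correlated at −0.10 over genes. With the replicate block 7 members, 19 member probe sets, 13 other pathway genes, 10 downstream genes and 6679 genes passed, and IL6ST did not (adjusted p = 0.0709). With the numbers crossed, an alternative chosen after seeing the data, 8 members, 16 member probe sets, 14, 11 and 7301 genes passed. Dim values carry no detection call, which limits the sizes of differences that rest on them, such as those of IL6, IL11, AGT, FGB and FGG.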
